A study of Mus musculus with 2 samples.

Results

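The Mirg cluster is the row of microRNA hairpin genes that runs from Mir379 to Mir410, with Mir3072 beyond it, on mouse chromosome 12 in the imprinted Dlk1-Dio3 region. It is called here after Mirg, the long RNA gene annotated over its distal end. Its 33 members are a list of names set by place on the chromosome, with no threshold on a measured value, and all 33 had a row among the 1973 microRNA gene rows of the count tables. On mm10 the members spanned 38.9 kb of the plus strand, from Mir379 to Mir3072 (chr12:109709060-109747960).

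MicroRNAs were sequenced from mouse midbrain, the part of the brain stem that forms the tectum and the tegmentum, with RNA of under 30 nt selected. The study held 2 libraries of 1 group and no treatment: wild-type B6NCrl embryos at embryonic day 13.5, male and female pooled. The labels number the libraries as biological replicates 1 and 2 from separate tissue samples, under one donor record. Any test on them compares 2 libraries and no conditions, and whether their difference is technical or biological cannot be told apart.

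MicroRNAs are cut from hairpins. Each hairpin can give a 5p and a 3p strand, and the strand that is loaded into an Argonaute protein pairs with target RNAs mainly through its seed, bases 2 to 8. In the Dlk1-Dio3 region the long RNAs Meg3, Rian and Mirg and their microRNAs are expressed from the maternally inherited chromosome, and Dlk1, Rtl1 and Dio3 from the paternal one. The cluster is known for its expression in the brain and embryo of placental mammals, and several of its microRNAs act on neurogenesis, dendrite growth and synapses.

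The hairpins of the 5 members with the most counts are shown first, since these set the level of the whole cluster. The RefSeq table (GRCm38.p6) held a hairpin for 31 of the 33 members, and Mir666 and Mir544 were not matched. Mature strands in the table are in capitals, read 5′ to 3′.
Mir487b: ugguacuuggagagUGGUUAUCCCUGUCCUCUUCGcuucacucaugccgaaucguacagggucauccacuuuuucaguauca
Mir369: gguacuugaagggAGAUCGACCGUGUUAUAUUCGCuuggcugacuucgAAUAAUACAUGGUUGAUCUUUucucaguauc
Mir382: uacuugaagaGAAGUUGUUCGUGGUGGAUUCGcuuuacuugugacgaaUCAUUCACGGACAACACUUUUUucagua
Mir411: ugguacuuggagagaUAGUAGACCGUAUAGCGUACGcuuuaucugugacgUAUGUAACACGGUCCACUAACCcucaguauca
Mir381: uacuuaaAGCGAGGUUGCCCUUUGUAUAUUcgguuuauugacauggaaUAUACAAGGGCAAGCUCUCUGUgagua
These hairpins lie at chr12:109727333-109727414 (Mir487b), chr12:109743418-109743496 (Mir369), chr12:109733771-109733846 (Mir382), chr12:109710175-109710256 (Mir411) and chr12:109726822-109726896 (Mir381), all on the plus strand of GRCm38.p6. For 12 members, Mir411, Mir382 and Mir381 among them, the gene ID has another version in the annotation used here than in the tables, so the counted feature may differ from the coordinates, lengths and exon places given here.

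Many members look alike, and the RefSeq table gave 61 mature strands over all 33 members with 56 distinct seeds. The table named only a 5p strand for Mir487b, Mir376c and Mir539, only a 3p strand for Mir485 and a lone strand for Mir453. Counts of strands and seeds therefore leave out any strand that the table does not name. Among the strands named, a seed was shared by a pair of members in 5 cases, which took in 9 members. The strands of 4 of these pairs are shown with the seed in capitals, because a count per hairpin cannot say which strand of the pair was present.
miR-379-3p: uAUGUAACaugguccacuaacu
miR-411-3p: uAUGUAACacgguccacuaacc
miR-379-5p: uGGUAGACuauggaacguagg
miR-1193-5p: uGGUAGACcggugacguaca
miR-494-5p: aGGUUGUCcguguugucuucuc
miR-410-5p: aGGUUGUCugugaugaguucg
miR-453: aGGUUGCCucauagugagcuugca
miR-496a-5p: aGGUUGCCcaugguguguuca
Counted from 1 at the 5′ end, miR-379-3p and miR-411-3p differed at 2 bases, U10C and U22C, both outside the seed. A further 40 of the 61 strands had a seed that no other mouse mature strand in the table had.

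A near match can also fall inside the seed. The 3p strands of Mir300 and Mir381 differed at 3 of 22 bases (G4A, U21G and C22U, with the base of miR-300-3p first), and the first of these is in the seed.
miR-300-3p: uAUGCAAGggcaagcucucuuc
miR-381-3p: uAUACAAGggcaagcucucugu

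Levels are CPM, the counts of a locus scaled to a common total over all counts on the strand of the gene, so a value is the level of a whole hairpin locus with both strands summed. The libraries held 5093743 such counts in replicate 1 and 2935841 in replicate 2. Reads that mapped to several places, 34.4% and 37.7% of all reads, are in no locus count. The 95% intervals for counts and the limit set by 3 counts, 0.589 CPM in replicate 1 and 1.02 CPM in replicate 2, cover counting error only. As a check of the labelled tissue, the neural Mir137 stood at 9265 and 6397 CPM, and the muscle Mir206 at 14.7 and 10.6 CPM. Mir137 is the only locus of the neural list whose hairpin shares no run of 20 nt with another. The other 7 neural rows, copies of Mir9, Mir124a and Mir128, can lose reads that map to several copies. So can the 3 other muscle rows, which had 0 counts. The loss per row was not measured, so these 10 rows check little. The choroid plexus and ciliated cell markers with a row all had counts, and their values stand beside the library comparison.

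The cluster's share of the midbrain's microRNA counts was larger in replicate 1 than in replicate 2. There were 329522 counts in replicate 1, a share of 6.47% (Clopper-Pearson 95% interval 6.45 to 6.49), and 171183 in replicate 2, a share of 5.83% (5.80 to 5.86). The mean share was 6.15% ± 0.451 (SD, n = 2), and the gap between the libraries was wider than the counting intervals. With multimapping reads counted in the total, the mean share is 3.40%. In a whole tissue, fewer cells with the microRNA and less of it per cell cannot be told apart.

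Most members were present, and their levels were uneven. At least 1 CPM in both libraries was reached by 31 of 33 members, against 449 of the 1973 loci of the tables. At 100 CPM or more in both libraries stood 22 members (66.7%), against 202 of all loci (10.2%). At 1000 CPM or more in both libraries stood 11 members (33.3%), against 88 of all loci (4.46%). Mir487b was the only member among the 20 highest loci.

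**Figure D1:**
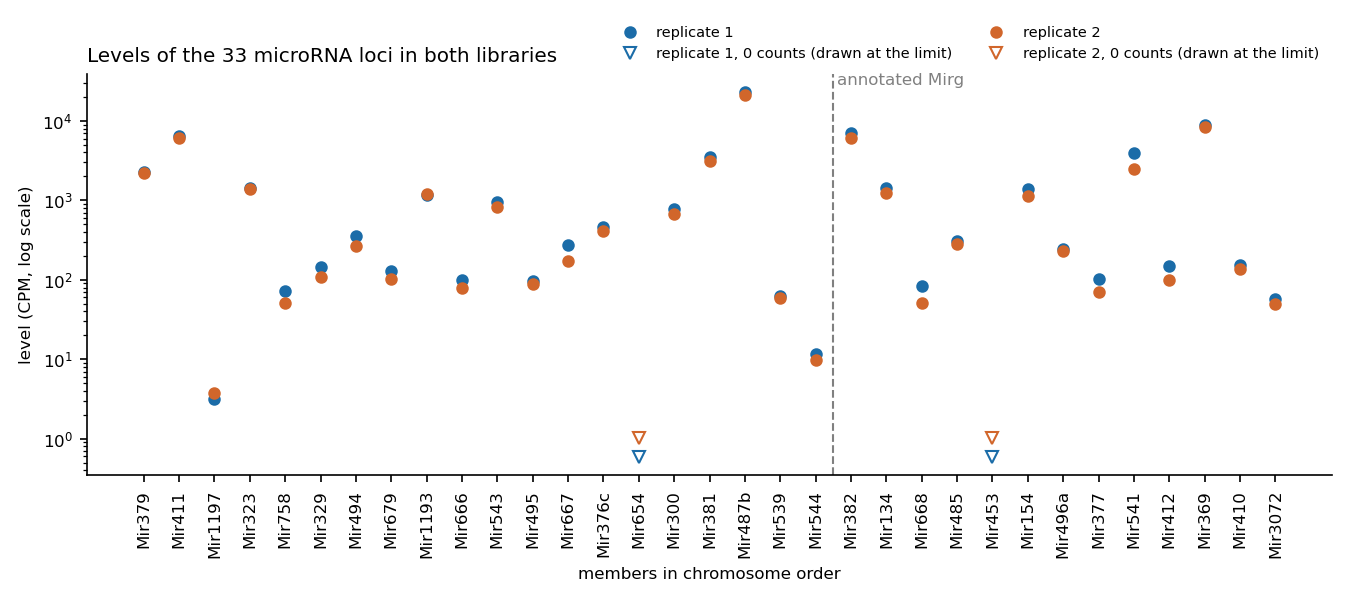
Levels of the 33 members in CPM on a log scale, in chromosome order, with 1 point per library, open triangles at the limit of 3 counts for 0 counts, and a dashed line at the annotated start of Mirg. Mir487b stands highest at 22765 and 21219 CPM, the points of the libraries lie close together, and Mir654 and Mir453 had 0 counts.

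Mir487b led the cluster with 22765 CPM in replicate 1 and 21219 CPM in replicate 2, a mean of 21992 ± 1093 CPM (SD, n = 2). It was the ninth highest of all loci and gave 35.2% and 36.4% of the cluster's counts. Every other member was below it in both libraries.

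Mir369 followed with 8800 and 8380 CPM (8590 ± 297). Its 3p strand is known to bind AU-rich elements and, with miR-496 and miR-543, to repress N-cadherin in neural progenitors. Mir382 had 7053 and 6114 CPM (6584 ± 664), and Mir411 had 6403 and 6138 CPM (6271 ± 187). These last values overlapped, so the order of Mir382 and Mir411 is not fixed by 2 libraries.

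Mir381 had 3478 and 3105 CPM (3292 ± 264). Mir541 had 3900 CPM in replicate 1 and 2445 CPM in replicate 2 (3172 ± 1029), the widest absolute gap after that of Mir487b. Mir541 was therefore above Mir381 in one library and below it in the other.

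The 5 leading members, Mir487b, Mir369, Mir382, Mir411 and Mir381, gave 75.0% and 77.1% of the cluster's counts, a mean of 76.0% ± 1.51 (SD, n = 2). Per 100 nt of locus, the same 5 led. With 10 members the share was 91.1% and 91.5%.

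**Figure D2:**
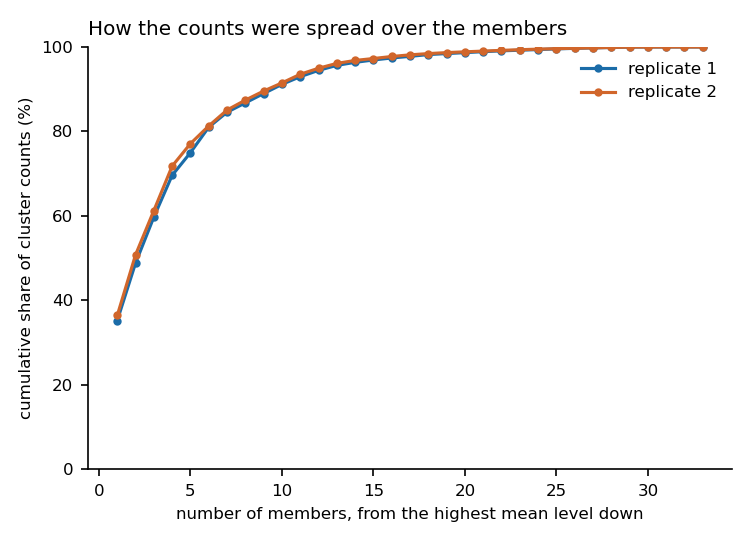
Cumulative share of the cluster's counts, in percent, against the number of members taken from the highest down, with 1 line per library. The lines pass 35.2% and 36.4% at the first member, 75.0% and 77.1% at 5 members and 91.1% and 91.5% at 10 members.

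A middle group lay above 1000 CPM. Mir379, the first hairpin of the cluster, had 2294 and 2197 CPM (2246 ± 68.2), above all members of lower rank in both libraries. Mir323 had 1433 and 1371 CPM. Mir134, whose product limits the size of dendritic spines through Limk1, had 1430 and 1253 CPM.

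Mir154 had 1407 and 1122 CPM (1264 ± 201), and Mir1193 had 1180 and 1196 CPM (1188 ± 11.3). Each of Mir323, Mir134, Mir154 and Mir1193 overlapped with the next, though Mir1193 was below Mir323 and Mir134 in both libraries.

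Mir543, the second of the members known to act on N-cadherin, had 965 and 832 CPM. Mir300 had 769 and 668 CPM, and so stood below Mir381 by several fold although their 3p strands differ at 3 bases. Mir376c, of a hairpin family known for A-to-I editing in the brain, had 463 and 410 CPM. Each of these 3 was below the one before it in both libraries.

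Mir494 had 361 and 264 CPM, a range that took in Mir485 at 309 and 280 CPM. Mir485, whose 5p strand (not named in the RefSeq table) is known to repress the synaptic vesicle protein Sv2a, is one of 4 members that lie wholly in an annotated Mirg exon. Mir496a, the remaining member of the N-cadherin set, had 248 and 228 CPM, within the span of Mir667 at 273 and 172 CPM.

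The last members at 100 CPM or more in both libraries were close together. Mir410 had 153 and 136 CPM, and Mir329, known like Mir134 for a role in activity-dependent dendrite growth, had 144 and 109 CPM. Mir412 had 147 and 101 CPM. Mir679 had 130 and 102 CPM, and the 4 ranges overlapped along this order.

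The remaining 11 members ran from under 104 CPM to 0. Mir495, Mir666, Mir377, Mir668, Mir758, Mir539 and Mir3072 lay between 50.1 and 103 CPM. Mir544 had 11.6 and 9.88 CPM. Mir1197 had 3.14 CPM from 16 counts and 3.75 CPM from 11 counts, and was the lowest member with any count. Mir487b was 6386-fold above it on mean CPM. Mir654 and Mir453 had 0 counts in both libraries, which allows up to 0.589 and 1.02 CPM.

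Of the 32 neighbouring pairs in the order of levels, 16 had ranges over the libraries that did not overlap and 16 had ranges that did. The order was the same in both libraries for 20 of the 32. The order itself was close to the same in both: 16 members had the same rank, 28 differed by 1 rank or less, and none by more than 2. Across the 31 members with at least 10 counts, Spearman's rho between the libraries was 0.994. Across all 466 such loci it was 0.983, and loci of one library share its depth and preparation.

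Seed pairs joined loci of unlike levels. The loci with the AUGUAAC seed, Mir379 and Mir411, summed to 8697 and 8336 CPM, and those with the GGUAGAC seed, Mir379 and Mir1193, to 3474 and 3393 CPM. For GGUUGUC, Mir494 and Mir410 gave 513 and 401 CPM. The GGUUGCC pair rested on Mir496a alone, since Mir453 had 0 counts. The remaining pair, Mir1197 and Mir758, summed to 75.6 and 55.5 CPM, most of it from Mir758. The sums are of whole loci: they include strands without that seed and lack reads that mapped to several places.

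Levels often differed widely between listed members next to each other on the chromosome. No comparison with a shuffled order was made. Of the 32 steps from one listed member to the next, 17 were at least 10-fold. The median step was 3.34 on the log2 scale of CPM with 0.5 CPM added. Steps to or from Mir654 and Mir453, which had 0 counts, depend on the added 0.5 CPM. The steps pass over Mir299a, Mir380, Mir376a, Mir376b and Mir409, which lie in the same stretch and have no row of their own. Spearman's rho of level with distance from Mir379 was −0.05 over 33 members, and that of each member with the next was −0.26. These are descriptions across genes that share both libraries. Mir1197, at under 4 CPM, lies between Mir411 and Mir323, and Mir487b lies between Mir381 and Mir539.

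**Figure D3:**
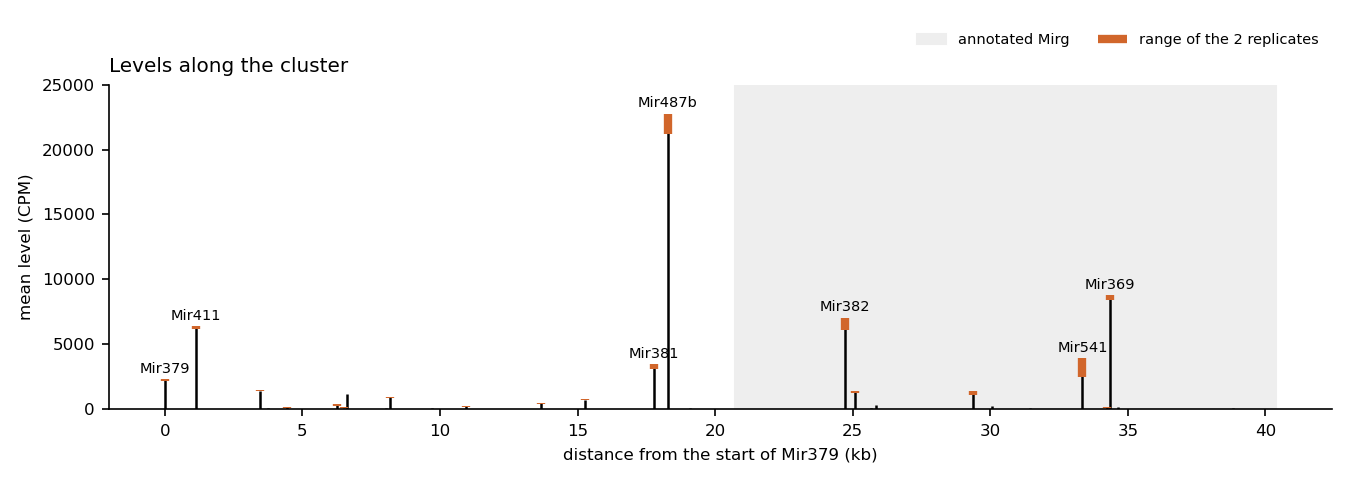
Mean level of each member in CPM on a linear scale (black lines) against its distance from the start of Mir379 in kb, with the range of the 2 replicates in orange and the annotated extent of Mirg shaded. Tall lines stand on both sides of the annotated start of Mirg at 20.7 kb, with low members between them.

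The annotated Mirg gene covers only the distal members. In GENCODE M21 it starts at position 109729764, which is 20.7 kb after the start of Mir379, so 20 members lie before it and 13 within it. The 20 members before Mirg gave 63.4% and 65.3% of the cluster's counts, a mean of 64.3% ± 1.36 (SD, n = 2). Their median of mean CPM was 268, against 238 for the 13 members within Mirg. At 1000 CPM or more in both libraries stood 6 of the 20 and 5 of the 13.

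The members within Mirg differ in their place against its annotated exons. The 4 members wholly in exons (Mir134, Mir485, Mir377 and Mir410) summed to 1993 and 1741 CPM. The 5 partly in exons (Mir382, Mir668, Mir412, Mir369 and Mir3072) summed to 16142 and 14696 CPM, most of it from Mir369 and Mir382. The 4 in introns (Mir453, Mir154, Mir496a and Mir541) summed to 5555 and 3795 CPM. Of the 13, 12 had at least 10 counts.

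A short run of bases recurs in the hairpins. The 7 bases UUCGCUU, found as the commonest 7-mer after all had been counted on the hairpin's own strand, were present in 10 of 31 member hairpins (32.3%) and in 12 of all 1005 mouse hairpins in the table (1.19%). The 2 hairpins outside the cluster were Mir1298 and Mir6340. The members were Mir323, Mir329, Mir543, Mir495, Mir487b, Mir382, Mir154, Mir377, Mir369 and Mir410, and in Mir487b, Mir382 and Mir369 above it spans the end of the 5p strand and the start of the loop. The 3 highest members hold it and so does Mir377, which had 103 and 70.5 CPM. Median mean CPM was 1082 over these 10 and 238 over the 21 member hairpins without it, given with no test because the run was found in these hairpins.

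Reads of some members can be hard to place. The hairpins of 4 members hold a stretch of at least 20 nt that is also, base for base, in a second annotated hairpin. In Mir487b the run shared with Mir376b is bases 63 to 82 of 82, past the annotated 5p strand. The RefSeq table names no 3p strand for Mir487b, so overlap of this run with a 3p strand was not measured. In Mir411 the run shared with Mir758 is bases 61 to 81 and covers 12 bases of miR-411-3p and none of miR-411-5p. In Mir376c the run shared with Mir376b is bases 3 to 33 and covers 18 bases of miR-376c-5p. The counts of Mir376c, Mir411, Mir758 and Mir487b are therefore given as uncertain. Without the counts of these 4 members the cluster share is 3.27%, since Mir487b and Mir411 are among them. The total was left unchanged, with other loci that share a run still in it (923 of 1973 rows share one). The value shows how much of the share rests on these 4 members and is not a corrected level.

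In 4 further microRNAs of the same stretch, Mir299a, Mir380, Mir376a and Mir409, the tables held only a row for a gene annotated on the other strand, and the counts of those rows were on the strand opposite to that gene, apart from 7 and 3 counts at the row over Mir299a. Mir376b had no row and no overlapping row. The 4 loci summed to 13665 and 11850 CPM of opposite-strand counts. With them the cluster share would be 7.43% ± 0.580 (SD, n = 2) in place of 6.15%. None of the 33 members had opposite-strand counts on its own row.

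Upstream in the same region lie the Meg3 and Rtl1-antisense microRNAs, of which 18 of 21 listed had a row. Mir127, antisense to Rtl1 and known to repress it, led them with 7059 and 5980 CPM. Mir431 had 4082 and 3446 CPM, Mir434 had 1900 and 1780 CPM, and Mir433 had 1510 and 1684 CPM. The upstream loci together had 19600 and 17269 CPM. The cluster's counts were 3.30 times theirs in replicate 1 and 3.38 times in replicate 2, a mean of 3.34 ± 0.0536 (SD, n = 2). With the counts of the 4 members that share a run left out and the upstream loci unchanged, the ratio is 1.78.

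The libraries were then compared for each locus by a conditional binomial test (exact, two-sided) on library sizes scaled by TMM, with Benjamini-Hochberg adjustment over the 466 loci with at least 10 counts. This test takes in counting error and no spread between tissue samples. Of the 31 members tested, 16 were higher in replicate 1, where 18.7% of all loci were, and 1 was higher in replicate 2, where 19.3% were (38% of all loci passed in either direction). The other 14 did not pass at an adjusted p of 0.05. The tested members had a median mean CPM of 294, against 53.0 over all tested loci, and deeper loci pass at smaller ratios. With at least 100 counts required, 18 of 29 members were higher in replicate 1, where 29.8% of loci were. At that depth 1 was higher in replicate 2, where 27.9% of loci were. The members' median log2 ratio, replicate 1 over replicate 2, was 0.12 (range −0.28 to 0.67), and the median over all loci was −0.00. A ratio above 0 was seen in 26 of 31 members and in 231 of 466 loci (49.6%).

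**Figure D4:**
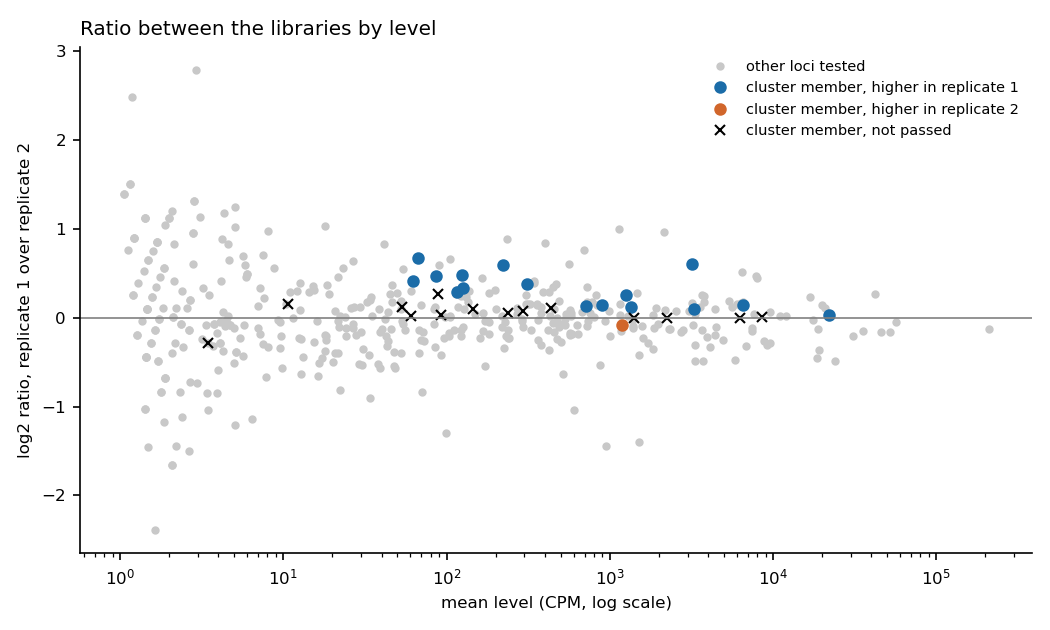
Log2 ratio of replicate 1 over replicate 2 against mean level in CPM on a log scale, with the other loci tested in grey, members higher in replicate 1 in blue, the member higher in replicate 2 in orange and members that did not pass as crosses. Of the 31 members, 26 lie above 0, and the 3 highest ratios are those of Mir668, Mir541 and Mir667.

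The differences were small in most members. Within 1.5-fold stood 28 of 31, against 80.9% of all loci, and 20 of the 22 members with a mean of 100 CPM or more, against 93.7% of loci at that level. At a difference of 1.5-fold or more that passed the test, 3 members were higher in replicate 1, where 3.86% of loci were, and 0 in replicate 2, where 3.43% were. Mir541 was 1.52-fold higher (log2 ratio 0.61, adjusted p = 3.29e-216 by the exact binomial test). Mir667 was 1.51-fold higher (0.60, exact adjusted p = 2.09e-15), and Mir668, at 84.2 and 50.4 CPM, was 1.59-fold higher (0.67, exact adjusted p = 2.63e-06).

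Depth let small gaps pass. Mir487b, with 115960 and 62295 counts, passed at a 1.02-fold ratio (exact adjusted p = 6.05e-06), and Mir382 passed at a log2 ratio of 0.14. Mir134 had a log2 ratio of 0.12 and Mir154 of 0.26, and both passed. Mir369, Mir411, Mir379 and Mir323, whose ratios were within 0.01 of 0, did not pass. Mir1193 was the member higher in replicate 2, at a log2 ratio of −0.09 (exact adjusted p = 0.0153), and this call was lost with replicate 1 thinned to the depth of replicate 2, without a low-count filter and with unscaled totals (exact adjusted p from 3.36e-10 to 0.702 over the 7 alternatives).

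The upstream loci moved the same way, with 9 of 15 tested higher in replicate 1, where 18.7% of all loci were. Of these 15, 1 (Mir433) was higher in replicate 2, where 19.3% of all loci were, and 5 did not pass. Their median log2 ratio was 0.15. Library sizes were also set by the upstream loci in place of TMM, a scaling added after the data were seen. With it, 7 members were higher in replicate 1, where 10.1% of all loci were, and 6 in replicate 2, where 29.6% were. The members' share of calls that were higher in replicate 1 was then 53.8% in place of 94.1%, and the medians moved to 0.01 over members and −0.11 over all loci. This scaling lowers all ratios by about the same amount, so members with ratios near 0 under TMM, Mir487b (−0.08) and Mir381 (−0.02) among those called, fall below 0 by construction.

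Several markers of other cell types were higher in the library where the cluster's share was lower. Of the 6 choroid plexus and ciliated cell microRNAs, 3 were higher in replicate 2, where 19.3% of all loci were. None was higher in replicate 1, where 18.7% of all loci were. Their sum was 2022 CPM in replicate 1 and 4011 CPM in replicate 2. Mir449a of ciliated cells had 859 and 2166 CPM, and Mir204 had 736 and 1018 CPM. The endothelial Mir126a had 16256 and 21170 CPM. The mural cell list summed to 5051 and 6702 CPM, with both tested members higher in replicate 2 and the third at 0 counts in both libraries.

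The neural list summed to 10552 CPM in replicate 1 and 7688 CPM in replicate 2. Of its 8 rows, 1 was higher in replicate 1 (Mir137), where 18.7% of all loci were. In replicate 2, where 19.3% of all loci were higher, 1 was higher (Mir128-2), and 6 rows did not pass. Without Mir137 the other 7 summed to 1287 and 1290 CPM, and the list's median log2 ratio was −0.07. The blood list summed to 253 and 298 CPM, with 1 of 4 higher in each direction, beside the same shares over all loci. Mir122 of liver had 58.9 and 139 CPM and Mir375 of endocrine cells 523 and 1365 CPM, both higher in replicate 2. The part of these cell types in the cluster's higher share in replicate 1 was not tested.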

How the data were processed

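The deposited tables hold raw counts of reads per microRNA gene made by the authors, with 3 columns for unstranded, same-strand and opposite-strand counting and 4 rows of reads not assigned to a gene. The strand of each column was read from the values, and the mm10 assembly and annotation M4 are given in the notes deposited with each table. For the aligner, the sources used here name none. Same-strand counts were used. The tables have no columns of other samples.

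CPM was computed over the gene rows, and log2 ratios with 0.5 CPM added. Row IDs were named with GENCODE M21, where 1894 of 1973 were found, and 21 of the 33 members had the same ID version. Library sizes were scaled by TMM (edgeR 4.0.16, R 4.3.3) and loci with at least 10 counts tested with an exact conditional binomial test (scipy 1.17.1, Python 3.11.15), because 2 libraries of 1 group leave no group comparison. The test script was tested on simulated data. Alternatives included DESeq2 1.42.0 size factors. ViennaRNA 2.7.2 gave folding energies. Every member is named, and outside the cluster the 4 highest upstream loci and the markers. The members, though set by name and place, and the other lists were chosen with earlier results of these data known.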

Additional observations from a re-analysis of the deposited data

Results flagged for a closer look

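Counts appeared outside the main measurement at 4 microRNAs of the stretch whose only row was a gene on the other strand. Counted on the strand of the microRNA, Mir409 had a mean of 7154 ± 899 CPM (SD, n = 2; 7789 and 6518 CPM) and would stand at place 3 among the members. Mir376a had a mean of 3794 CPM (4049 and 3538 CPM) and would stand at place 5. Each place is among the 33 listed members alone, so with Mir409 counted too Mir376a would stand lower. The 5 leading members named above and their share are likewise of the 33 listed members, without Mir409 or Mir376a. Mir380 had a mean of 978.4 CPM (977 and 980 CPM), and Mir299a a mean of 832.3 CPM (850 and 814 CPM). All 4 were above the limit of 3 counts in both libraries.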

How the results depend on the processing

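No paired analysis was possible because both libraries belong to 1 group. For the same reason, leaving out a library leaves no library test, and without each replicate in turn only levels could be given: the cluster share ranged from 5.83% to 6.47%, the share of the 5 leading members from 75.0% to 77.1%, the ratio to the upstream loci from 3.30 to 3.38, the share before Mirg from 63.4% to 65.3%, the number of members at 100 CPM from 22 to 23, and the number of the 5 leading members that stayed among the 5 highest from 4 to 5. The cluster share was 3.27% without the 4 members that share a 20 nt run, which left the total unchanged and gives no corrected level. It was 3.40% with multimapping reads in the denominator. With opposite-strand counts added it was 7.43%, and the share before Mirg was 60.8%. Without the run-sharing members the 5 leading members held 73.0% and the ratio to the upstream loci was 1.78. At 1000 CPM the number of members was 11. Members higher in replicate 1 numbered 16 in the main test (18.7% of all loci), 17 with DESeq2 size factors (19.5%) and 21 with total counts only (24%). They numbered 19 with no filter (13.5%), 18 with at least 100 counts (29.8%) and 13 with replicate 1 thinned (18.6%). Without run-sharing members there were 14 (18.7%), with 1.5-fold required 3 (3.86%) and with scaling by the Meg3 and Rtl1-antisense loci 7 (10.1%). Members higher in replicate 2 numbered 1 in the main test (19.3% of all loci), with DESeq2 size factors (19.1%) and with at least 100 counts (27.9%). Unstranded counts (19.7%) and leaving out run-sharing members (19.3%) also gave 1. There were 0 with total counts only (14.8%), no filter (11.4%), thinning (18.8%) or 1.5-fold required (3.43%), and 6 with the added scaling (29.6%). Under that scaling the log2 ratio of Mir381 reversed to -0.0191 and that of Mir487b to -0.0812. It moves the median of all loci from −0.00 to −0.11, so ratios this small reverse by construction. Of the 16 members higher in replicate 1, 7 were called under each of total counts only, no filter, 100 counts, unstranded counts, thinning, DESeq2 size factors and the added scaling. The like number over all loci was not computed. The cause of the other changes was not tested. Depth limits the lowest members: Mir1197 rests on 16 and 11 counts.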

Other observations

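Hairpin features are described without a test. GC content ran from 29.1% to 72.3% (median 45.1%), and the predicted folding energy from −46.9 to −22.8 kcal/mol (median −33.5). Across the 33 members, which share both libraries, Spearman's rho with mean CPM was −0.26 for GC content, −0.00 for folding energy and −0.07 for locus length. Several member strands share a seed with a mouse microRNA in the table that is not a member. For example, miR-344d-3p and miR-344e-3p share one with miR-410-3p, miR-362-3p with miR-329-3p, and miR-7229-5p with miR-411-5p.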
